A study of Mus musculus with 8 samples.

Results

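The lipins and their neighbors in triglyceride synthesis were examined as 8 genes, *Gpam*, *Agpat2*, *Agpat3*, *Lpin1*, *Lpin2*, *Lpin3*, *Dgat1* and *Dgat2*, chosen by name from the 32390 rows of a gene count table. All 8 passed the filter on low counts and were among the 12725 rows tested. The samples were gastrocnemius muscles of male mice, 4 *Nox4* fl/fl controls and 4 MckCre:*Nox4* fl/fl mice, hereafter NOX4-deficient. The labels give an age of 21 months and 1 batch for all 8. Both groups carry the floxed *Nox4* alleles and differ in the Cre transgene. According to the paper, its *Mck* promoter drives Cre mainly in skeletal muscle and less in the heart. Other cells of the tissue may thus keep *Nox4*, which was not measured here. The RNA came from whole homogenized muscle, so that fewer cells of a type and less RNA per cell cannot be told apart.

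Triglyceride is built on a glycerol backbone in the endoplasmic reticulum and the outer mitochondrial membrane. A first acyl chain is added by glycerol-3-phosphate acyltransferases such as GPAM, a second by the AGPAT enzymes, and the resulting phosphatidate is dephosphorylated by the lipins to diacylglycerol, to which DGAT1 or DGAT2 adds the last acyl chain. Diacylglycerol also feeds the synthesis of phosphatidylcholine and phosphatidylethanolamine. Lipin 1, the main lipin of skeletal muscle, also acts in the nucleus as a coactivator of fatty acid oxidation genes, and its loss causes lipodystrophy in mice and rhabdomyolysis in people.

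Libraries held between 16350548 and 19804661 counts, and values are CPM, counts scaled to a common library size with TMM factors, with SDs over 4 mice. *Nox4*, the deleted gene, stood between 1.87 and 5.09 CPM in the controls and between 1.74 and 2.21 CPM in NOX4-deficient mice, so that the groups overlapped (log2 fold change -0.65, standard error 0.29). Its adjusted p was 0.207 (quasi-likelihood F test of edgeR, Benjamini-Hochberg over all rows tested), and without control replicate 1 the log2 fold change of *Nox4* was -0.36 (edgeR adjusted p = 0.489). The 8 muscle fiber markers, among them *Myh4* of fast fibers, summed to between 130552 and 166836 CPM, whereas the 4 liver markers summed to at most 1.07 CPM. Of the 12725 rows tested, 784 (6.16%) were called, which required a log2 fold change beyond 0.5 in either direction at an adjusted p below 0.05. Without control replicate 4, which lay farthest from the NOX4-deficient mice on the first principal component (40.7% of the variance), 499 were called.

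Of the 8 genes, *Lpin1* and *Agpat3* were called lower in NOX4-deficient muscle and none was called higher, where 3.48% of all rows tested were called lower and 2.68% higher. The groups did not overlap in these same 2 genes, and groups did not overlap in 16.2% of all rows (8.97% lower and 7.2% higher). Over the 8 genes 6 log2 fold changes were negative, with a median of -0.20, beside a median of 0.01 over all rows tested. The same 2 genes were called under every alternative tried.

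Levels of *Lpin1* were 655, 634, 614 and 970 CPM in control mice 1 to 4 and 233, 289, 206 and 330 CPM in NOX4-deficient replicates 1 to 4. Every NOX4-deficient library was below every control library, and control replicate 4 stood above the other controls, which lay close together. The mean fell from 718 ± 169 to 265 ± 55.6 CPM (mean ± SD of 4 mice each), which is 63.2% lower. The log2 fold change was -1.44 (standard error 0.18, 95% interval -1.83 to -1.05, edgeR adjusted p = 9.61e-04). Without control replicate 4 it was -1.26 (edgeR adjusted p = 0.00101), and with any 1 library left out it lay between -1.55 and -1.26. The libraries were unstranded, and no gene on the other strand overlaps the exons of *Lpin1* in GENCODE M21.

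*Agpat3*, an enzyme of the second acylation step that is also known for its role in phospholipid remodeling, stood at 141, 157, 141 and 167 CPM in the controls and at 102, 106, 96.3 and 108 CPM in NOX4-deficient replicates 1 to 4. The groups were tight and far apart, with coefficients of variation of 8.58% and 4.91%. The mean fell from 151 ± 13.0 to 103 ± 5.05 CPM (mean ± SD of 4 mice each), which is 31.9% lower, at a log2 fold change of -0.56 (standard error 0.10, 95% interval -0.76 to -0.35, edgeR adjusted p = 0.00558). The value lay close to the minimum fold change, and without control replicate 4 it was -0.50. An antisense gene, *Gm40709*, shares 16 bases (0.205%) of the annotated exon bases of *Agpat3*.

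**Figure D1:**
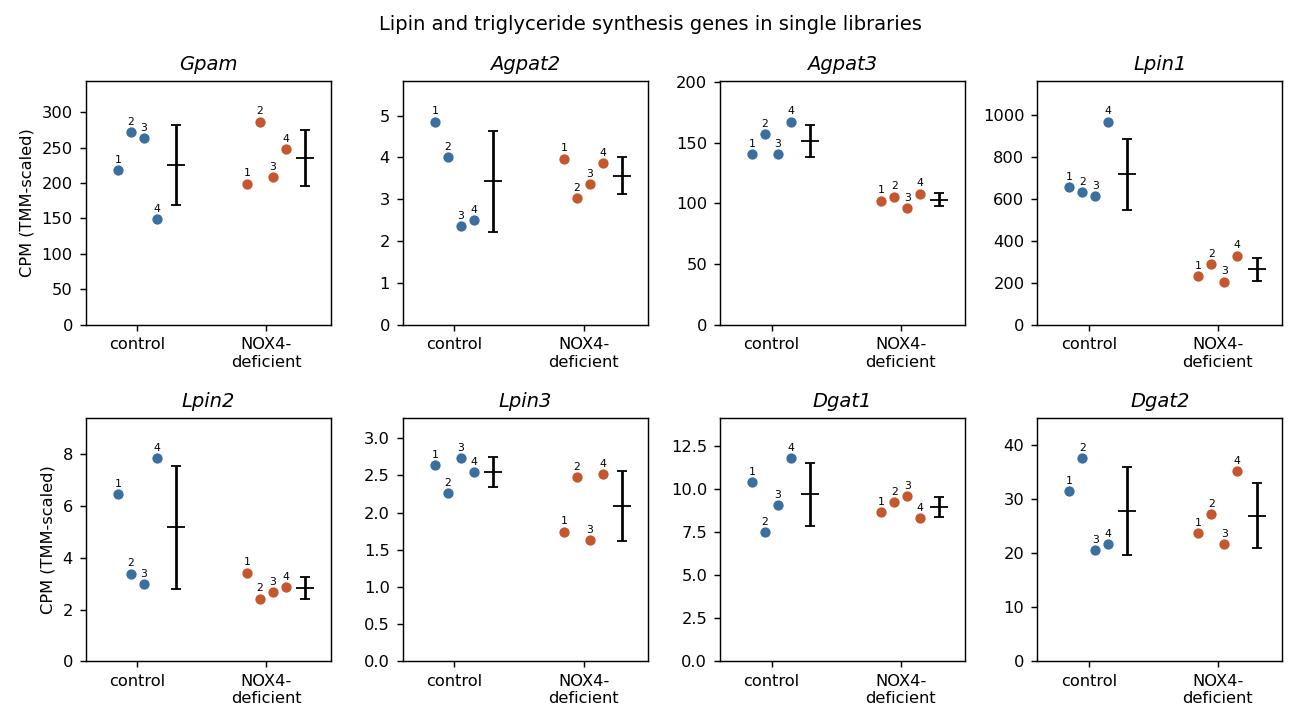
CPM of the 8 genes in each library (y axis, from 0 in each panel) for control and NOX4-deficient mice, with the replicate number above each point and mean ± SD at the right of each group. *Lpin1* and *Agpat3* separate the genotypes, whereas the points of the other 6 genes overlap.

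The sequences upstream of *Lpin1* and *Agpat3* are shown since these were the genes called lower, and those of *Lpin2* and *Lpin3* let the lipins be compared. The 250 bases before each RefSeq start site (build GRCm38.p6) are given 5′ to 3′ in lower case. RefSeq windows matched 6 of the 8 genes by symbol, all but *Dgat1* and *Dgat2*, with 10 windows in all, and the first annotated window is shown for *Lpin2* and *Lpin3*. Capitals mark any match, on either strand, to 7 motifs that were searched.
*Lpin1* (chr12:16610967-16611216, minus strand): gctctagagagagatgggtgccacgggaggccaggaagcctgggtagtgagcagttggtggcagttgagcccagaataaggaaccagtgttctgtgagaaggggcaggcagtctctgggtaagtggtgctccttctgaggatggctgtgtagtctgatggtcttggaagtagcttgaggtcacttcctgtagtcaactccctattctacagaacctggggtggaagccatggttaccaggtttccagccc
*Agpat3* (chr10:78351701-78351950, minus strand): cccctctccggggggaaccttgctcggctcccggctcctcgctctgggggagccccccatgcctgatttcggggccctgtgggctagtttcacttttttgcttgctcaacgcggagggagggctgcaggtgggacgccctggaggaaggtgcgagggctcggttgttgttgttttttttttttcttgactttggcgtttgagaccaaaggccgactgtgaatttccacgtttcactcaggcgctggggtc
*Lpin2* (chr17:71183282-71183531, plus strand): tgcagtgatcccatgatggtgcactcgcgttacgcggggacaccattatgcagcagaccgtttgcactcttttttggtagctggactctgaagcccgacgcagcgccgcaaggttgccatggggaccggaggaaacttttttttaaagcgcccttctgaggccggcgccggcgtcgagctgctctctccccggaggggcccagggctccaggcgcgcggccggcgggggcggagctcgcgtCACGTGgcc
*Lpin3* (chr2:160880420-160880669, plus strand): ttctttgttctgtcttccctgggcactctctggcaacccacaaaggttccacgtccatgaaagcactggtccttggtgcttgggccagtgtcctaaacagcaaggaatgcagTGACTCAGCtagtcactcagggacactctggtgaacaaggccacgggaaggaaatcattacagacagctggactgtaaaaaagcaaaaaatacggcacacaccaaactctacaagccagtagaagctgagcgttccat
The motifs were the E-box of clock factors (CACGTG), the D-box (TTATGTAA), the core of the antioxidant response element to which NFE2L2 binds (TGACNNNGC), a sterol response element (TCACNCCAC), a PPAR direct repeat (AGGTCA, any base, AGGTCA), a core of the glucocorticoid response element (ACANNNTGT) and an estrogen-related receptor element (TCAAGGTCA). None of the motifs matched in the windows of *Lpin1* and *Agpat3*, nor in those of *Gpam* and *Agpat2* or the further windows of *Lpin2* and *Lpin3*. Sites outside these windows, or with letters other than those given, were not searched. *Lpin2* held the E-box, which was in 6.02% of all 32851 windows and in at least 1 window of 6.86% of genes. *Lpin3* held the antioxidant response element core, which was in 10.2% of windows and 11.5% of genes. The D-box was in 0.819% of all windows, the sterol element in 1.05%, the PPAR repeat in 0.0335%, the glucocorticoid core in 5.84% and the estrogen-related receptor element in 0.387%. The matches did not overlap each other.

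*Lpin2* and *Lpin3*, which encode phosphatidate phosphatases with the same activity as lipin 1 and higher expression in other tissues, were scarce. Control replicates 1 to 4 gave 108, 66, 56 and 151 counts of *Lpin2*, and their NOX4-deficient counterparts gave 57, 48, 51 and 49. Control replicates 1 and 4 were high and the other controls lay lower. In CPM these (3.40 and 3.00) fell within the NOX4-deficient range of 2.43 to 3.43, so that the groups overlapped. The means were 5.18 ± 2.36 CPM and 2.85 ± 0.426 CPM (mean ± SD of 4 mice each), and the difference was not called (log2 fold change -0.86, standard error 0.30, 95% interval -1.51 to -0.22, edgeR adjusted p = 0.101). Without control replicate 4 the log2 fold change of *Lpin2* was -0.58. *Lpin3* had between 44 and 51 counts in control and between 29 and 49 counts in NOX4-deficient muscle. Its level was 2.54 ± 0.201 CPM and 2.09 ± 0.472 CPM (mean ± SD of 4 mice each), a log2 fold change of -0.28 (95% interval -0.76 to 0.21, edgeR adjusted p = 0.498).
*Lpin1* thus held nearly all lipin counts, from 98.6% to 99.1% in the control libraries and from 97.8% to 98.4% in the NOX4-deficient libraries. Summed over the 3 lipins, the level was between 620 and 980 CPM in the controls and between 210 and 335 CPM in NOX4-deficient muscle.

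*Gpam*, which encodes the mitochondrial acyltransferase of the first step, had 218, 272, 264 and 149 CPM in the controls and 199, 287, 208 and 247 CPM in NOX4-deficient replicates 1 to 4. The groups overlapped, and control replicate 4, the highest library for *Lpin1*, was the lowest for *Gpam*. The log2 fold change was 0.06 (standard error 0.18, 95% interval -0.33 to 0.45, edgeR adjusted p = 0.882), so that a difference of the size of that in *Lpin1* lay outside the interval. The sign of *Gpam* turned without control replicate 4 (-0.09) and without NOX4-deficient replicate 2 (-0.05). In counts per library, *Gpam* was 0.154 to 0.430 times *Lpin1* in control and 0.750 to 1.01 times *Lpin1* in NOX4-deficient muscle, without correction for length.

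*Agpat2*, the form best known from adipose tissue, whose loss causes lipodystrophy, was low, with 44 to 81 counts in control and 60 to 66 counts in NOX4-deficient libraries. Its means were 3.43 ± 1.21 CPM and 3.56 ± 0.439 CPM (mean ± SD of 4 mice each), a log2 fold change of 0.06 (95% interval -0.48 to 0.59, edgeR adjusted p = 0.926). A fall of the size of that in *Agpat3* thus lay just outside the interval. The sign of *Agpat2* turned when control replicate 3 or control replicate 4 was left out and with the adipocyte markers as a term. *Egfl7*, on the other strand, shares 64 bases (3.00%) of its annotated exon bases.

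Neither DGAT gene was called. *Dgat1* had 10.4, 7.51, 9.10 and 11.8 CPM in the controls and 8.66, 9.25, 9.62 and 8.33 CPM in NOX4-deficient replicates 1 to 4, and the narrow NOX4-deficient range lay inside that of the controls. Its log2 fold change was -0.11 (standard error 0.15, 95% interval -0.45 to 0.22, edgeR adjusted p = 0.709). *Dgat2*, whose product also sits on lipid droplets, had 31.6, 37.6, 20.5 and 21.7 CPM in the controls and 23.7, 27.3, 21.7 and 35.3 CPM in NOX4-deficient muscle. Libraries of both genotypes were spread over the same range, and the log2 fold change was -0.05 (standard error 0.21, 95% interval -0.50 to 0.41, edgeR adjusted p = 0.926). The sign of *Dgat2* turned in 4 of the 8 fits that left out 1 library.

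Levels of different genes were compared as CPM per kb of the longest coding transcript in GENCODE M21. In control muscle *Lpin1* was highest at 129 ± 30.2 CPM per kb (SD, n = 4), followed by *Gpam* at 36.6 ± 9.11, *Agpat3* at 25.3 ± 2.17, *Dgat2* at 12.3 ± 3.61, *Dgat1* at 5.14 ± 0.972 and *Agpat2* at 2.30 ± 0.813 CPM per kb. *Lpin2* and *Lpin3* came last at 0.918 ± 0.419 and 0.733 ± 0.0579 CPM per kb. *Gpam* and *Agpat3* overlapped between control libraries, as did *Lpin2* and *Lpin3*, whereas the other neighbors in this order did not.
In NOX4-deficient muscle the order was the same except that *Lpin3* (0.603 ± 0.136 CPM per kb, SD, n = 4) stood above *Lpin2* (0.506 ± 0.0754), within their spread. The level of *Lpin1*, 47.4 ± 9.95 CPM per kb, then overlapped that of *Gpam*, 38.1 ± 6.50 CPM per kb. *Lpin1* made up 60.7% of the summed mean level of the 8 genes per kb in control and 38.6% in NOX4-deficient muscle.

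**Figure D2:**
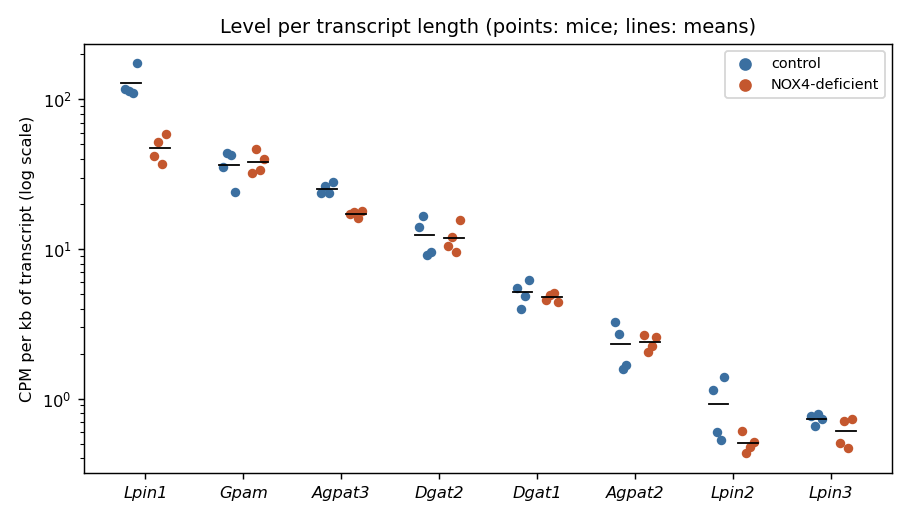
Level of the 8 genes in CPM per kb of transcript (y axis, log scale), ordered by the control mean, with points for mice and lines for means. *Lpin1* lies above all other genes in control mice and reaches the range of *Gpam* in NOX4-deficient mice.

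The other genes of the pathway were taken from a list of 21 genes, of which 18 were tested. Only *Gpd1* was called, higher, and none was called lower, beside the 6.16% called over all rows. At an unadjusted p under 0.05 in edgeR 3 of the 18 were lower and 2 higher, where 12.5% of all rows were lower and 10.7% higher, and DESeq2 called none in either direction. The median log2 fold change of the 18 was 0.00. *Gpat2*, *Mogat1* and *Mogat2* did not pass the filter on low counts, at no more than 0.210 CPM in any library.
*Gpd1*, which makes glycerol-3-phosphate from a glycolytic intermediate and so supplies the backbone, stood at 426, 412, 493 and 333 CPM in the controls and at 576, 550, 688 and 540 CPM in NOX4-deficient replicates 1 to 4. The groups did not overlap, and the mean rose from 416 ± 65.4 CPM to 589 ± 67.9 CPM (mean ± SD of 4 mice each), a log2 fold change of 0.50 ± 0.13 (SE, edgeR adjusted p = 0.0354). The value lay at the minimum fold change. The call was lost without any 1 of control replicates 1, 2 and 4 and NOX4-deficient replicates 1 and 3 (log2 fold change 0.51, 0.50, 0.41, 0.52 and 0.43, edgeR adjusted p from 0.0600 to 0.0926), and with the adipocyte markers as a term (0.52, edgeR adjusted p = 0.0685). Under DESeq2 (0.499, adjusted p = 0.00540) and without the filter (0.496, edgeR adjusted p = 0.0164) the fold change fell just under the minimum.
*Fitm2*, an endoplasmic reticulum protein needed for normal lipid droplet formation, had groups that did not overlap, at 106 to 130 CPM in the controls and 74.9 to 96.6 CPM in NOX4-deficient mice. The log2 fold change of -0.42 ± 0.11 (SE, edgeR adjusted p = 0.0335) was under the minimum for a call. *Ctdnep1*, the catalytic subunit of the phosphatase that dephosphorylates lipins, had 119 ± 7.81 CPM in the controls and 152 ± 25.5 CPM in NOX4-deficient muscle (mean ± SD of 4 mice each), with groups that overlapped (log2 fold change 0.35, edgeR adjusted p = 0.110), and its partner *Cnep1r1* had a log2 fold change of -0.02.
Among the paralogs of the 8 genes, *Agpat1* was at 85.7 ± 3.26 CPM in the controls and 96.5 ± 12.2 CPM in NOX4-deficient muscle (mean ± SD of 4 mice each; log2 fold change 0.17, edgeR adjusted p = 0.358), and *Gpat4* had a log2 fold change of 0.07 (edgeR adjusted p = 0.683). The values were -0.44 for *Agpat4* (edgeR adjusted p = 0.483) and 0.07 for *Agpat5* (edgeR adjusted p = 0.772). *Gpat3* was at 8.24 ± 1.96 CPM and 5.72 ± 1.43 CPM (mean ± SD of 4 mice each; log2 fold change -0.53, edgeR adjusted p = 0.160), with groups that overlapped. It was called lower with the replicate number as a block (-0.53, edgeR adjusted p = 0.0449).

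A second list held 19 genes that use phosphatidate or diacylglycerol for phospholipids, or turn diacylglycerol back into phosphatidate. Of these, 17 were tested, with 7 negative and 10 positive log2 fold changes, a median of 0.03 and none called in either direction by edgeR or DESeq2. At an unadjusted p under 0.05 in edgeR, 1 was lower and 1 higher, beside the same 12.5% and 10.7% over all rows. The most abundant, *Chpt1* (last step of phosphatidylcholine synthesis), *Pcyt1a* (its rate-limiting step) and *Cds2* (CDP-diacylglycerol synthase), had log2 fold changes of 0.03, 0.01 and -0.25, with edgeR adjusted p-values from 0.324 to 0.975. Without 1 library, *Chpt1* and *Pcyt1a* took either sign. *Cds2* was at -0.11 without control replicate 4 and at -0.15 without NOX4-deficient replicate 1.

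**Figure D3:**
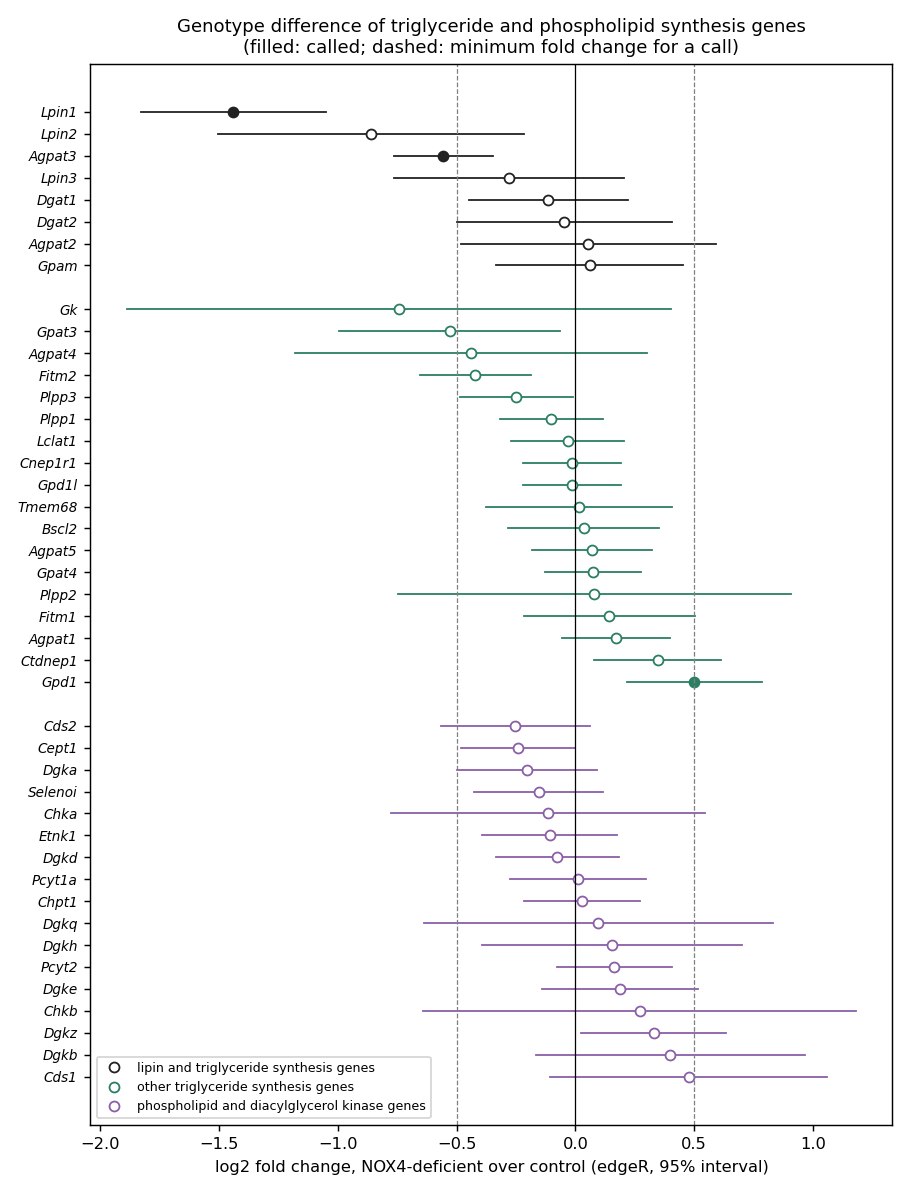
Log2 fold change, NOX4-deficient over control (x axis), of the 8 genes and the tested genes of both lists, with 95% intervals from edgeR; filled points are called and dashed lines mark the minimum fold change. *Lpin1* at -1.44, *Agpat3* at -0.56 and *Gpd1* at 0.50 are the filled points.

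*Lpin1* is known as a gene that fasting and glucocorticoids induce in several tissues and that varies over the day, so genes of those responses are given beside it. Of 10 glucocorticoid- and fasting-responsive genes, a list chosen with results of these data known, 7 were called lower and none higher, with a median log2 fold change of -1.58, beside the 3.48% called lower and 2.68% called higher over all rows. Examples are *Zbtb16* (-1.98, edgeR adjusted p = 6.01e-04), *Trim63* (-2.18, edgeR adjusted p = 0.00202) and *Cdkn1a* (-2.03, edgeR adjusted p = 0.00841). Their summed level was between 4266 and 6204 CPM in the controls and between 1442 and 2116 CPM in NOX4-deficient libraries.
Of 14 clock genes, 2 were called lower, *Arntl* (-1.94) and *Npas2* (-2.32), and 4 higher, *Per3* (1.84), *Hlf* (1.46), *Ciart* (1.59) and *Dbp* (2.37), with edgeR adjusted p-values from 2.85e-04 to 0.0334, beside the same 3.48% and 2.68%. Control replicate 4, the highest control for *Lpin1* at 1.53 times the mean of the other controls, was also the highest control for 6 of the 10 responsive genes and for *Arntl*. It stood at 2.14 times the mean of the other controls for *Fbxo32*, 1.89 times for *Fkbp5* and 2.51 times for *Arntl*. It was the lowest control for 2 of the 10 responsive genes, *Pdk4* (0.776 times the mean of the other controls) and *Zbtb16* (0.954 times). Of the 14 clock genes it was the highest control for 4 and the lowest for 7, among them *Dbp* (0.217 times), *Ciart* (0.546 times), *Hlf* (0.579 times) and *Per3* (0.692 times). The part of these responses in the difference in *Lpin1* was not tested.

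**Figure D4:**
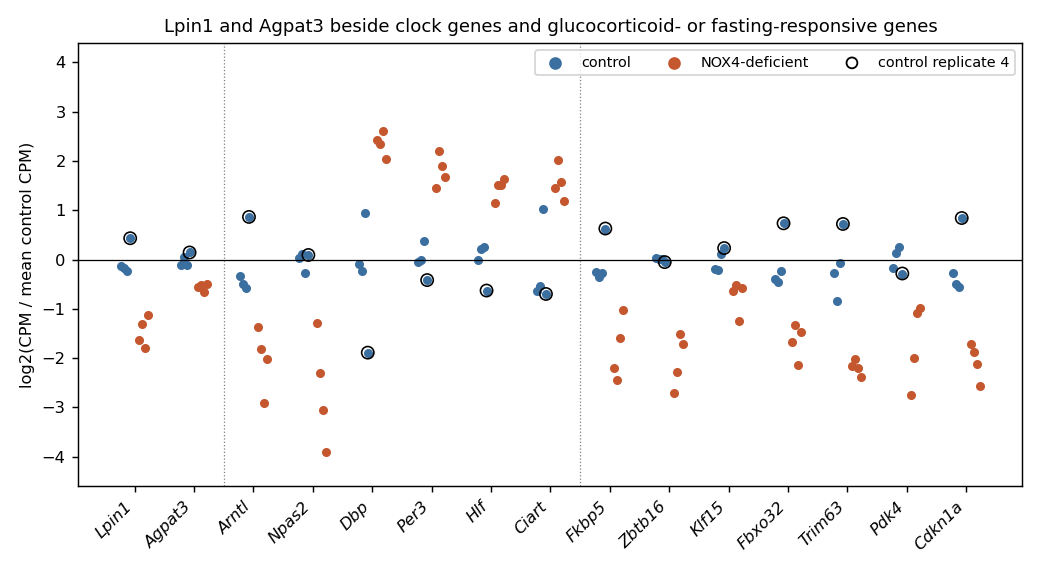
Log2 of CPM over the mean control CPM (y axis) for *Lpin1* and *Agpat3*, for the called clock genes (middle) and for the called glucocorticoid- and fasting-responsive genes (right); points are libraries and open circles mark control replicate 4. Control replicate 4 lies above the other controls for *Lpin1*, *Agpat3*, *Arntl*, *Fkbp5*, *Klf15*, *Fbxo32*, *Trim63* and *Cdkn1a*, below them for *Dbp*, *Per3*, *Hlf*, *Ciart*, *Zbtb16* and *Pdk4*, and between them for *Npas2*.

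Markers of other cells are given beside these results. None of the adipocyte, slow-fiber, immune cell and muscle fiber markers was called by edgeR or DESeq2. At an unadjusted p under 0.05 in edgeR 2 of the 5 immune cell markers were lower, beside 12.5% of all rows. No adipocyte, slow-fiber or muscle fiber marker passed that threshold in either direction. The sum of the 7 adipocyte markers lay between 15.1 and 83.1 CPM in the controls and between 21.99 and 74.8 CPM in NOX4-deficient libraries, with *Adipoq* lowest at 2.55 CPM in control replicate 4. With the mean of these markers as a term, the log2 fold change of *Lpin1* was -1.42 (edgeR adjusted p = 0.00297) and that of *Agpat3* -0.54 (edgeR adjusted p = 0.0186). The 7 slow-fiber markers all had positive log2 fold changes (median 0.66), with sums from 294 to 639 CPM in the controls and from 386 to 1155 CPM in NOX4-deficient muscle. The 5 immune cell markers all had negative log2 fold changes (median -0.69). The groups did not overlap for *Ptprc*, lower, as in 8.97% of all rows. Sums of the 5 markers were from 27.5 to 66.6 CPM in the controls and from 12.9 to 34.1 CPM in NOX4-deficient muscle. The part of fiber type and immune cells in the differences in *Lpin1* and *Agpat3* was not tested.

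Genes whose variation among mice of 1 genotype most resembled that of *Lpin1* were found from log2 CPM after the mean of each genotype was subtracted. Over the 8 samples, *Acadsb* (r = 0.992), *Psmd5* (0.984) and *Cab39* (0.983) came first among all rows tested. These values describe 8 libraries, searched over 12725 rows that share libraries and depth. *Cab39*, which encodes a partner of the kinase LKB1, had a log2 fold change of -0.46 between genotypes (edgeR adjusted p = 0.0237), whereas *Acadsb*, an acyl-CoA dehydrogenase, had one of -0.04 (edgeR adjusted p = 0.882). For *Agpat3* the nearest genes were *Actl6a* (0.976), *Auts2* (0.973) and *Ankrd13c* (0.962).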

How the data were processed

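Poly(A) RNA of 8 gastrocnemius muscles went into unstranded libraries for paired-end sequencing, and the authors ran the nf-core pipeline for RNA-seq. The submitters' processing notes name STAR and GRCm39, and the annotation and counter settings are not given in the sources used here. The authors deposited raw counts per gene without normalization, 1 column per mouse, and all 8 columns matched a sample title. No pair of replicates agreed within sampling noise (chi-square divided by its degrees of freedom, 13.5 to 56.4). Where a name was repeated (412 rows), the row with the most counts carried it.

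Counts of all rows were fitted in R 4.3.3 with edgeR 4.0.16 (TMM, filterByExpr, estimateDisp, robust glmQLFit and glmQLFTest, with no covariate), with Benjamini-Hochberg adjustment across 12725 rows. The fit was tested on simulated data with known changes. Alternatives were DESeq2's size factors, library size only, no filter, a minimum of 10 counts per library throughout, a non-robust fit, DESeq2 1.42.0, the replicate number as a block, the mean of the adipocyte markers (log2 of CPM + 0.5) as a term, no minimum fold change and each library left out. An odd-or-even term for the replicate number was added after the data were seen. Promoter windows came from RefSeq (GRCm38.p6) and transcript lengths from GENCODE M21, matched by symbol. These use another build than the counts, so that no position of a count is given.

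The genes, lists and motifs were chosen with earlier results of these data known. Genes named are the 8 genes, *Nox4*, the called and the 3 most abundant genes of each pathway list, the paralogs of the 8 genes and other genes named for a value beside a result (chosen after their values were seen), called genes of the other lists, and the 3 nearest genes of each called gene. Each library is 1 of 4 mice per genotype.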

Additional observations from a re-analysis of the deposited data

Results flagged for a closer look

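In 30 groups of 4 libraries (15 genes in both genotypes), the gap of the highest or lowest library to its nearest neighbor was divided by the range of the group. It exceeded Dixon's 95% critical value in 2 groups, and chance gives about 1 in 20. Control replicate 4 stood apart as the highest control for *Lpin1* (ratio 0.884). NOX4-deficient replicate 1 stood apart as the lowest NOX4-deficient library for *Nox4* (ratio 0.918), at 1.74 CPM.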

How the results depend on the processing

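*Lpin1* and *Agpat3* stayed called and lower in every alternative fit, with log2 fold changes from -1.55 to -1.26 and from -0.59 to -0.50 and adjusted p-values of at most 0.00433 and 0.0205. *Lpin2*, *Lpin3* and *Dgat1* stayed negative and uncalled, as did *Nox4* (-0.82 to -0.36 with 1 library left out). With 1 library left out, the log2 fold change ranged from -0.094 to 0.16 for *Gpam*, from -0.073 to 0.26 for *Agpat2*, from -0.19 to 0.13 for *Dgat2*, from -0.042 to 0.10 for *Chpt1* and from -0.080 to 0.10 for *Pcyt1a*. *Agpat2* was also negative with the adipocyte markers as a term (-0.020), and *Pcyt1a* with the term for odd and even numbers (-0.0045). The count of all called rows was 499 to 712 with 1 library left out, 558 with the adipocyte markers as a term and 999 by DESeq2. Of the other pathway genes 1 was called (*Gpd1*), and 0 to 1 with 1 library left out. The count was 0 without the filter, 0 by DESeq2 and 0 with the adipocyte markers as a term. It was 2 with the replicate block and 2 with the term for odd and even numbers (*Gpd1* and *Gpat3* in both). The causes were not tested. Deviations from the group means correlated at 0.290, 0.188, 0.0919 and 0.0563 between same-numbered mice of the 2 genotypes. Between mice of different number the correlations lay from -0.275 to 0.248. Whether same-numbered mice share more than a number was not tested. With the replicate block 933 rows were called, and among the 8 genes no call changed. The scarce *Lpin2*, *Lpin3* and *Agpat2* rest on only 29 to 151 counts per library. Their coefficients of variation in the controls were 45.6%, 7.90% and 35.3%. The part of depth in this spread was not tested.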

Other observations

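Principal component 2 of all genes (20.2% of the variance) set NOX4-deficient replicates 2 and 4 (-22.5 and -17.2) against replicates 1 and 3 (13.8 and 11.6). *Lpin1* stood at 289 and 330 CPM in replicates 2 and 4 and at 233 and 206 CPM in replicates 1 and 3. *Gpam* showed the same order, at 287 and 247 CPM against 199 and 208 CPM, as did *Dgat2*, at 27.3 and 35.3 CPM against 23.7 and 21.7 CPM, and *Lpin3*, at 2.48 and 2.52 CPM against 1.75 and 1.63 CPM. *Agpat3* did as well, at 106 and 108 CPM against 102 and 96.3 CPM, whereas *Agpat2*, *Lpin2* and *Dgat1* did not. These values were noticed in the data and were not tested.

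Among the control mice, replicate 4 was the highest for *Lpin1*, *Lpin2*, *Agpat3* and *Dgat1* and the lowest for *Gpam*. Replicate 1 had the largest sum of adipocyte markers (83.1 CPM) and the highest *Agpat2* (4.85 CPM), and replicate 2 had the highest *Dgat2* (37.6 CPM).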
